A study of Mus musculus with 6 samples.

Results

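Proteins that leave the cell or reside in its membranes enter the endoplasmic reticulum (ER) and are then carried to the Golgi in coated vesicles. The genes described here encode the machinery of both steps, and 56 of them were found among 18193 genes measured in the mouse uterus. They were chosen by gene symbol, as subunits of the signal recognition particle and its receptor, the Sec61 translocon, the translocon-associated proteins, signal peptidase, the COPII and COPI coats, the p24 cargo receptors and the Sec22 vesicle fusion proteins. The rule for symbols used no measured value, but the set was chosen with earlier results of these data known. A gene measured by several probe sets was represented by the brightest one, averaged over the 6 arrays.

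RNA came from the uterine horn of female mice on a mixed background, 8 weeks old, that carried the floxed Gata2 allele (GATA2 f/f). The tested mice received 1 mg of progesterone in 100 µl of sesame oil, and the control mice received sesame oil alone. All mice of both groups had been ovariectomized at 6 weeks of age, 2 weeks before the injection, and were killed 6 h after it. No recombinase is named in the labels, and both groups share the floxed genotype. Each group had 3 one-colour Affymetrix arrays, and the labels speak of RNA pools of 3 mice without saying that every array had a separate one. The p-values therefore reflect only how far these arrays differ from each other, part of which may be technical. Values are log2 levels after RMA, which summarises the probes of each probe set, and precision is limited by having 6 arrays.

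As background, the signal recognition particle (SRP) binds the signal sequence of a nascent protein and docks the ribosome at the SRP receptor, from which the chain passes into the Sec61 channel. Signal peptidase removes the signal sequence, and the translocon-associated proteins (TRAP) help some substrates to insert. COPII coats then bud vesicles from the ER, and COPI coats return material from the Golgi. Progesterone prepares the uterus for implantation, which includes secretion by its epithelium and stroma.

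After progesterone, 15 of the 56 genes were higher and 0 were lower (limma, Benjamini-Hochberg adjusted p under 0.05 over all genes). Over all 18193 genes, 5.92% were higher and 5.83% lower by the same rule. At an unadjusted limma p under 0.05, 26 of the 56 were above and 0 below their oil level, beside 12.2% and 13.8% of all genes. The median log2 change was 0.22, beside -0.02 over all genes, and 48 of the 56 changes lay above 0, beside 46.8% of all genes. On 29 genes the 3 progesterone arrays all lay above the 3 oil arrays, where 14.5% of all genes did so. On 1 gene, Copg2, they all lay below, where 15.9% of all genes did so, making 30.4% with arrays apart in either direction.

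These changes were small, and 5 of the 15 reached 1.5-fold. The genes are also brighter than most: 3427 of all genes had a mean level at or above the lower quartile of these genes, 9.10 on the log2 scale, and 10.2% of those were higher and 8.08% lower. Calls depended on single arrays: 11 of these genes passed without progesterone replicate 1, 5 without progesterone replicate 2, 7 without progesterone replicate 3, 3 without oil replicate 1, 2 without oil replicate 2 and 8 without oil replicate 3. Over all genes the share higher in the same fits ranged from 2.08% to 4.66%. In each of those fits the log2 change of all 15 stayed above 0, the lowest being 0.36. The sign could not have changed, because each of the 15 had every progesterone array above every oil array.

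**Figure D1:**
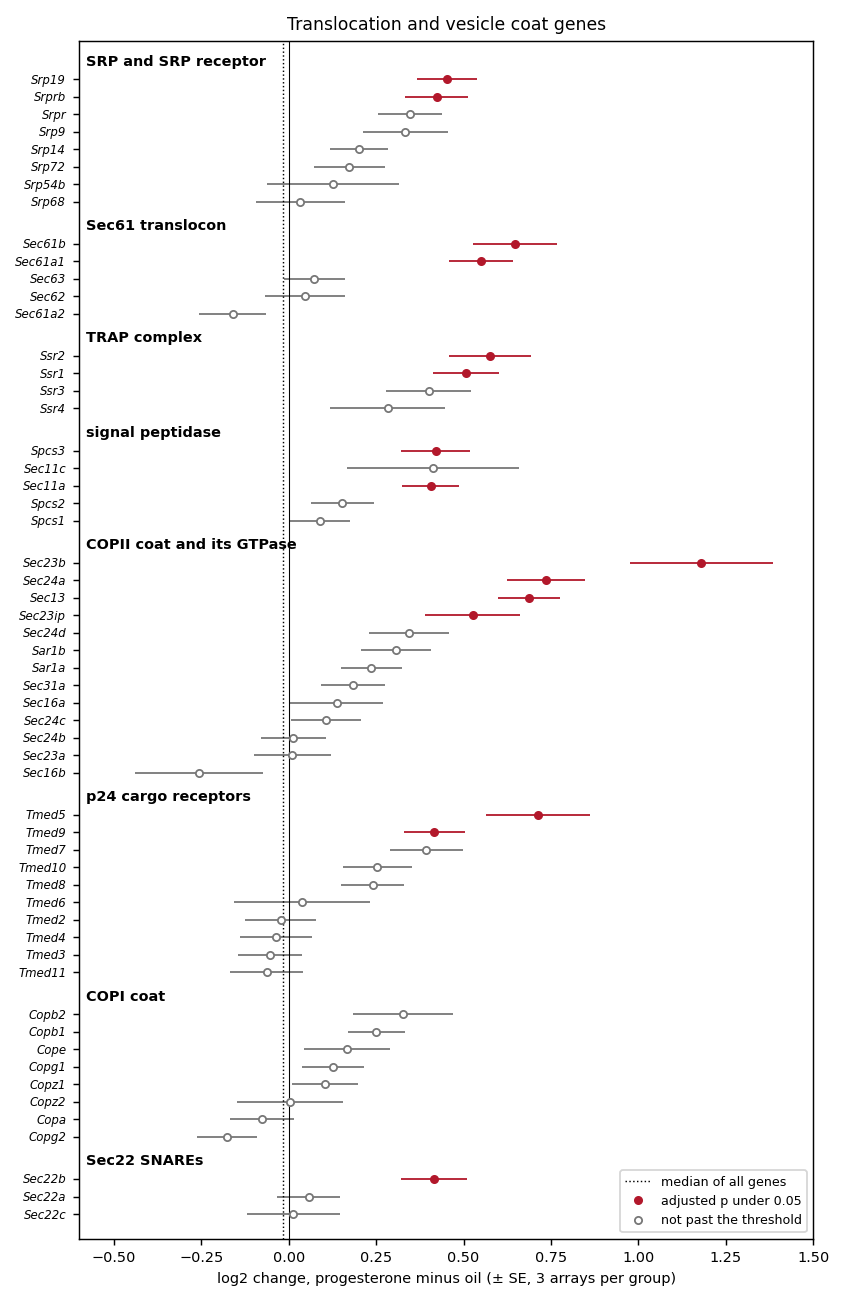
Log2 change, progesterone minus oil, with its standard error, for the 56 genes ordered by role (3 arrays per group). Filled red points passed the threshold, open grey points did not, and the dotted line is the median of all genes. The 15 filled points lie in every role except the COPI coat, and Sec23b lies farthest right at 1.18.

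Marker levels differed between arrays. Array medians lay between 5.51 and 5.53. Epithelial, stromal and smooth muscle marker genes were all detected above the TrpnX controls, bacterial sequences that reached 3.34. The mean log2 level of 12 epithelial markers ran from 9.54 to 10.74 over the progesterone arrays and from 9.60 to 10.63 over the oil arrays. It was highest on replicate 3 of both groups, with 1 of the 12 higher after progesterone. These markers share Ltf with the neutrophil markers given below. Plasma cells, which make much secretory machinery, had markers (10 genes) between 7.15 and 8.21 over the progesterone arrays and between 7.43 and 7.88 over the oil arrays. The 8 endothelial markers averaged 8.62 to 8.68 over the progesterone arrays, below their 8.75 to 9.14 over the oil arrays. Of these 8, 1 was lower by the test (Cldn5), 0 without any 1 progesterone array, 2 without oil replicate 1 and 3 with the replicate number as a block, and 0 were at control level.

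Other cell types varied more. The 8 neutrophil markers averaged 4.42, 8.11 and 7.25 over the progesterone arrays and 4.50, 4.38 and 7.27 over the oil arrays, so that 1 progesterone array and 2 oil arrays were low. None of the 8 passed, although all 8 changes lay above 0, with a median of 0.87. The 5 adipocyte markers averaged 5.44, 6.10 and 4.78 with progesterone and 6.64, 6.70 and 6.02 with oil, lower with progesterone for each replicate number. None of these 5 passed without a block, and 4 were lower with it. The 7 liver markers averaged 4.61 to 4.65 with progesterone and 4.19, 4.14 and 6.16 with oil, where oil replicate 3 stood apart. Of these 7, 1, Ttr, was 6.09-fold higher, with oil arrays spread over 5.61, 4.81 and 7.44. Its call held without oil replicate 3, but ended without any other single array and with trended and robust eBayes. Of 6 mast cell markers 1, Hdc, was 4.16-fold higher, a call that ended without progesterone replicate 3 or oil replicate 1. Macrophage, stroma and smooth muscle means overlapped between groups, and 5 erythroid markers averaged 4.32 to 4.38 over the progesterone arrays and 4.20 to 4.32 over the oil arrays. With the block, 2 of 12 epithelial markers were higher and 1 lower, 3 of 10 stromal markers higher and 2 lower, and 1 of 10 plasma cell markers higher and 1 lower. The part of these cell types in the results below was not tested. In whole tissue, fewer cells of a type and less RNA per cell cannot be told apart. Without replicate 3 of both groups, 4 of the 56 genes were higher and 0 lower, beside 3.22% and 2.42% of all genes, with a median log2 change of 0.20. These 4, all among the 15, were Sec13, Sec24a, Sec61a1 and Sec61b.

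The first step, recognition of the signal sequence, had 2 of 8 genes higher and a median log2 change of 0.27. All 8 changes lay above 0. This and the other role groups below are small, and their counts stand beside 5.92% of all genes higher. Srp19, which organises the SRP RNA for assembly, was at 9.95, 9.82 and 9.93 on the progesterone arrays, against 9.45, 9.48 and 9.41 on the oil arrays. The groups lay well apart, a 1.37-fold difference (log2 change 0.45 ± 0.09 SE, limma adjusted p = 0.0188). Srprb, the membrane-anchored beta subunit of the SRP receptor, was at 8.04, 7.84 and 7.94 with progesterone and 7.54, 7.49 and 7.52 with oil, 1.34-fold higher (limma adjusted p = 0.0274). Its lowest progesterone array lay above its highest oil array. Srpr, the alpha subunit with which Srprb pairs, was at 10.10, 10.03 and 10.21 with progesterone and 9.74, 9.83 and 9.73 with oil. Those groups did not overlap either, yet Srpr fell just outside the threshold (log2 change 0.35, limma adjusted p = 0.0523).

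Of the other SRP subunits, Srp9 and Srp14, which form the domain that slows elongation, had log2 changes of 0.33 and 0.20, with arrays that lay apart between groups and limma adjusted p-values of 0.131 and 0.184. Srp72 and Srp68, partner subunits, had log2 changes of 0.17 and 0.03 and overlapping arrays. Srp54b, at 5.97, 5.96 and 5.55 with progesterone and 5.97, 5.78 and 5.35 with oil, was among the dimmest of these genes, and probe sets that match several Srp54 copies were not used. The call of Srp19 held without progesterone replicate 1 or 2 and ended without progesterone replicate 3, oil replicate 1, oil replicate 2 or oil replicate 3 (adjusted p up to 0.0702). That of Srprb ended in every fit without 1 array, with adjusted p up to 0.104, and also without probe sets that can match several transcripts.

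At the channel itself 2 of 5 genes were higher, both of them subunits of the main Sec61 complex, with a median log2 change of 0.07. Sec61a1, the pore-forming alpha subunit, was at 11.60, 11.61 and 11.44 on the progesterone arrays, against 11.00, 10.95 and 11.05 on the oil arrays, a difference of 0.55 ± 0.09 SE in log2, or 1.46-fold (limma adjusted p = 0.0126). Sec61b, the small beta subunit, was at 11.40, 11.43 and 11.61 with progesterone and 10.83, 10.66 and 11.01 with oil, 1.57-fold higher (limma adjusted p = 0.0174). Neither gene had an oil array as high as its lowest progesterone array. The gamma subunit, Sec61g, is not among the 5, because its probe set also carries other gene symbols. That probe set was at 10.69, 10.56 and 10.96 with progesterone and 10.44, 10.62 and 10.56 with oil. Its arrays overlapped, and it did not pass when every probe set was tested (log2 change 0.20, limma adjusted p = 0.454). Sec62 and Sec63, membrane partners that serve post-translational transport, had log2 changes of 0.05 and 0.07 and overlapping arrays (limma adjusted p = 0.862 and 0.678). The call of Sec61a1 ended without oil replicate 1 (adjusted p = 0.0516) or oil replicate 2 (0.0624), and without probe sets that can match several transcripts. The call of Sec61b ended without progesterone replicate 2 (0.0554), oil replicate 1 (0.0652) or oil replicate 2 (0.0692).

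TRAP, the complex beside the channel, had 2 of 4 subunits higher, with changes of all 4 between 0.28 and 0.58. Ssr2 was at 9.38, 9.62 and 9.60 with progesterone and 8.87, 8.87 and 9.13 with oil, a difference of 0.58 ± 0.12 SE in log2, or 1.49-fold (limma adjusted p = 0.0234). Ssr1 was at 10.86, 11.05 and 11.09 with progesterone and 10.49, 10.48 and 10.51 with oil, 1.42-fold higher (limma adjusted p = 0.0183). The oil arrays of Ssr1 lay very close together, and both genes separated the groups. Ssr3, at 11.36, 11.12 and 11.40 with progesterone and 10.84, 10.77 and 11.07 with oil, did not pass (limma adjusted p = 0.0831), but did with the replicate number as a block (0.0374). Its other probe set rose as well when every probe set was tested (log2 change 0.44, limma adjusted p = 0.0363). Ssr4, an X-linked subunit, had a log2 change of 0.28 and overlapping arrays. The calls of Ssr1 and Ssr2 ended without progesterone replicate 2, progesterone replicate 3, oil replicate 1 or oil replicate 2, with adjusted p up to 0.0777 and 0.0966.

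Signal peptidase had 2 of 5 genes higher. Sec11a, a catalytic subunit, was at 11.44, 11.51 and 11.46 with progesterone and 11.10, 11.06 and 11.03 with oil, 1.33-fold higher (limma adjusted p = 0.0228). Spcs3, an accessory subunit needed for cleavage, was at 9.77, 9.61 and 9.66 with progesterone and 9.14, 9.27 and 9.37 with oil, 1.34-fold higher (limma adjusted p = 0.0382). Both had groups that lay apart. Sec11c, the alternative catalytic subunit, had a mean change as large as that of Sec11a, 0.41, but its arrays overlapped, at 9.03, 9.39 and 9.57 with progesterone and 8.68, 8.62 and 9.45 with oil. Oil replicate 3 was the array that reached into the progesterone range (limma adjusted p = 0.357). Spcs1 and Spcs2 had log2 changes of 0.09 and 0.15. The call of Spcs3 ended in all 6 fits without 1 array (adjusted p up to 0.126), and that of Sec11a in all but the fit without progesterone replicate 1 (up to 0.0883). With the mean of its probe sets Sec11a did not pass, but its other probe set had a mean level of 3.41, close to the TrpnX controls.

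**Figure D2:**
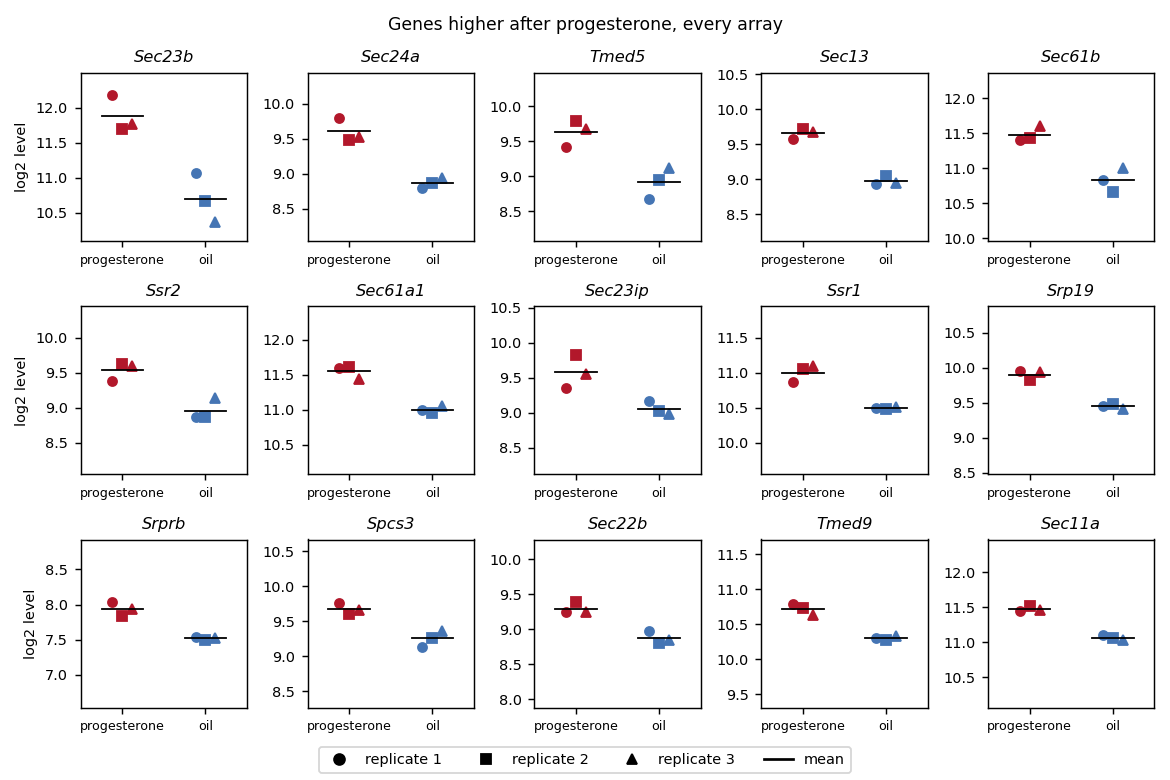
Log2 levels of the 15 genes that were higher after progesterone, on each array, with progesterone left of oil in every panel. Symbols mark the replicate number, horizontal bars the group means of 3 arrays, and every panel spans the same range of log2 units. No oil array reaches the lowest progesterone array of its gene.

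The COPII coat held the 2 largest changes of the 56 genes, with 4 of 13 higher. Sec23b, a subunit of the inner coat that triggers GTP hydrolysis by Sar1, was at 12.18, 11.70 and 11.77 on the progesterone arrays, against 11.07, 10.67 and 10.37 on the oil arrays. This was a 2.27-fold difference (log2 change 1.18 ± 0.20 SE, limma adjusted p = 0.0143), although both groups spread widely. Sec24a, an inner coat subunit that selects cargo, was at 9.80, 9.49 and 9.53 with progesterone and 8.80, 8.87 and 8.94 with oil, a difference of 0.74 ± 0.11 SE in log2, or 1.67-fold (limma adjusted p = 0.00947). Sec13, of the outer cage, was at 9.57, 9.72 and 9.68 with progesterone and 8.93, 9.04 and 8.94 with oil, a difference of 0.69 ± 0.09 SE in log2, or 1.61-fold (limma adjusted p = 0.00624). Sec13 and Sec24a were the 2 genes of the 15 whose call held in all 6 fits without 1 array and at an adjusted p of 0.01. Sec23ip, a protein that binds Sec23 at ER exit sites, was at 9.36, 9.83 and 9.56 with progesterone and 9.17, 9.02 and 8.98 with oil, 1.44-fold higher and barely past the threshold (limma adjusted p = 0.0495).

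The call of Sec23b ended without oil replicate 2 (adjusted p = 0.0659). That of Sec23ip held without progesterone replicate 1 and ended without any other single array (up to 0.157), after quantile normalization, with an offset before log2 and without probe sets that can match several transcripts. Sec31a, the partner of Sec13 in the cage, had a log2 change of 0.18 and arrays apart (limma adjusted p = 0.267). Sar1a and Sar1b, the GTPases that start coat assembly, had log2 changes of 0.24 and 0.31, again with arrays apart and no call (0.133 and 0.103). A dimmer probe set of Sar1a passed when every probe set was tested (log2 change 0.70, limma adjusted p = 0.0346). Sec16a, the scaffold of ER exit sites, had a log2 change of 0.14. Its relative Sec16b was at 5.50, 5.50 and 5.62 with progesterone and 5.46, 5.73 and 6.20 with oil, the lowest change of all 56 genes at -0.26 (limma adjusted p = 0.45). Sec24a and Sar1b are adjacent protein-coding genes on chromosome 11 in RefSeq (GRCm38.p6), and no other pair of the 56 was found adjacent there.

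Several of these proteins have paralogues with the same place in the coat or channel. Sec23a was at 9.44, 9.68 and 9.34 with progesterone and 9.43, 9.51 and 9.49 with oil, a log2 change of 0.01, while Sec23b changed by 1.18. Within each array the log2 difference between Sec23b and Sec23a was 2.74, 2.02 and 2.43 with progesterone, against 1.64, 1.16 and 0.88 with oil. Every progesterone array thus had a larger difference than every oil array. Among the Sec24 genes, Sec24d had a log2 change of 0.34 with arrays apart (limma adjusted p = 0.107), and Sec24c and Sec24b had changes of 0.11 and 0.01 with overlapping arrays. Sec61a2, the second alpha subunit, was at 8.15, 7.93 and 8.02 with progesterone and 8.13, 8.25 and 8.20 with oil, a log2 change of -0.16 beside 0.55 for Sec61a1.

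The change in the difference between paralogues was tested for 8 pairs with an exact two-sided permutation. With 20 ways to split 6 arrays, its smallest p is 0.1. The pairs Sec23b and Sec23a (1.17), Sec24a and Sec24b (0.72), Sec24a and Sec24c (0.63), Sec61a1 and Sec61a2 (0.71) and Copg1 and Copg2 (0.30) had non-overlapping groups and that smallest p of 0.1 (Benjamini-Hochberg adjusted 0.16), the values in brackets being log2 changes of the difference. For Sec24a and Sec24d the change was 0.39 (exact permutation p = 0.2, adjusted 0.267), with overlap. For Sar1b and Sar1a it was 0.07 (p = 0.8 by the same permutation), and for Copz1 and Copz2 0.10 (p = 0.6 by the same permutation). No pair passed, and the design could not have let one pass.

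**Figure D3:**
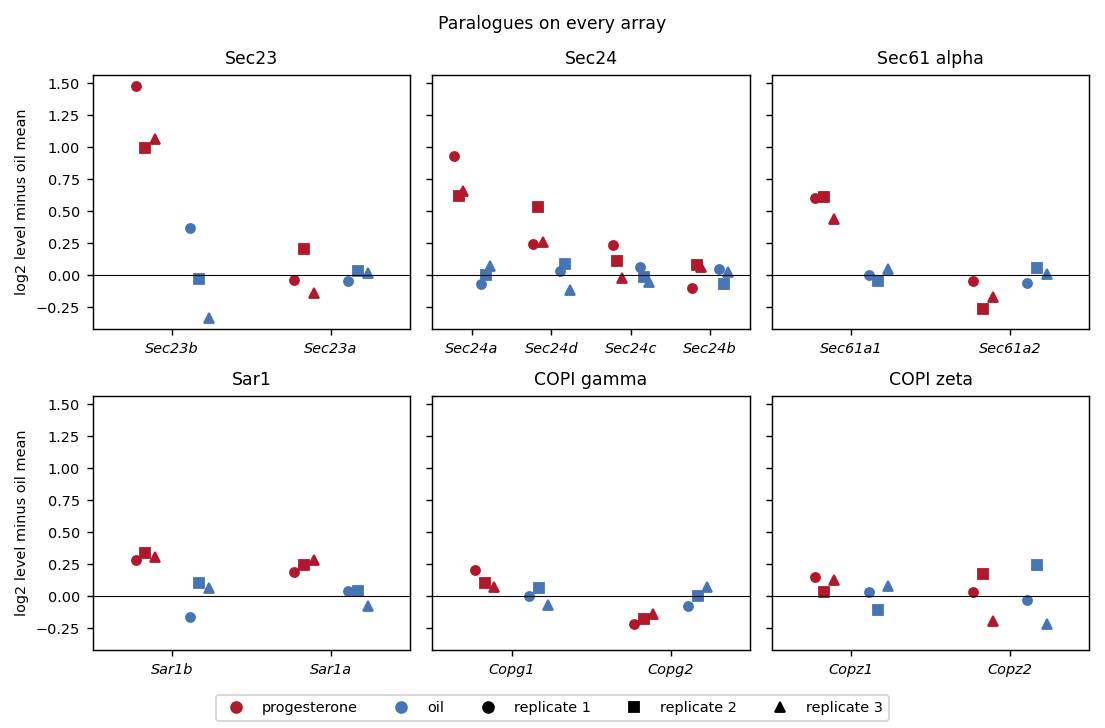
Log2 level minus the gene's oil mean on every array for 6 paralogue families, with progesterone (red) left of oil (blue) for each gene and symbols for the replicate number. Sec23b, Sec24a and Sec61a1 have all progesterone points above all oil points, whereas Sec23a, Sec24b, Sec24c and Sec61a2 have overlapping points.

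The promoters of 2 such pairs are shown because in each pair 1 paralogue passed the threshold and the other did not, and because the windows differ in short elements. The sequences are from RefSeq (GRCm38.p6), from 250 bases before to 50 after a start site, 5′ to 3′ on the strand of the gene. Capitals mark matches on either strand to TGACGTGG, a core element bound by factors of the unfolded protein response, or to CCAAT. The letters CCACG were searched too, and in these windows they lie only inside TGACGTGG, on the other strand. For Sec23b the first of 2 listed promoters is given.
Sec23b, chr2:144555979-144556278, plus strand: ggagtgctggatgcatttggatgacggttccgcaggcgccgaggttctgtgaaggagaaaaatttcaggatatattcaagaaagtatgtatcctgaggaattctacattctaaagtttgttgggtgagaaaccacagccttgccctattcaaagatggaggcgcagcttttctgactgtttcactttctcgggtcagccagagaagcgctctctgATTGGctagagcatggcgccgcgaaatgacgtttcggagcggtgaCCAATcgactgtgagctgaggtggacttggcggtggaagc
Sec23a, chr12:59011968-59012267, minus strand: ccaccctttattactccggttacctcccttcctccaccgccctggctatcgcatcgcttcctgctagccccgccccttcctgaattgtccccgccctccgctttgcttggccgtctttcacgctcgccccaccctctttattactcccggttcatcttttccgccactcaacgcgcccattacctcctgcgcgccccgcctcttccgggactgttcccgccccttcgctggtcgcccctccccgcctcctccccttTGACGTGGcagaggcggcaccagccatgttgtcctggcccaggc
Sec24a, chr11:51756785-51757084, minus strand: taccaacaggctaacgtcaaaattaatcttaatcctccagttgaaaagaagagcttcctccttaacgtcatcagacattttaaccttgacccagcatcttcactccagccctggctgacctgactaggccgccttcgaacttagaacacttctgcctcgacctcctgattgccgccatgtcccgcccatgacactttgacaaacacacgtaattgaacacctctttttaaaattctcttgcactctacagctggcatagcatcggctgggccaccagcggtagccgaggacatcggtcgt
Sec24d, chr3:123267246-123267545, plus strand: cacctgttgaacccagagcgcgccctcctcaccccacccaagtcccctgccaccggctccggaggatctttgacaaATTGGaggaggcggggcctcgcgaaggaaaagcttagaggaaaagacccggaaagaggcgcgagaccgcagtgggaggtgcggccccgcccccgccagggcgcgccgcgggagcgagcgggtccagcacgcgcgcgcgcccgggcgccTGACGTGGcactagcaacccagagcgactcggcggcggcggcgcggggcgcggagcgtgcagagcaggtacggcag

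Sec23a and Sec24d, neither of which passed the threshold, each hold 1 TGACGTGG, whereas the windows of Sec23b and Sec24a hold none. Those of Sec24b and Sec24c, which did not pass either and are not shown, also hold none. Promoters were found for 47 of the 56 genes, 11 of them among the 15 higher genes; Sec11c, Sec61a1, Spcs3, Srp19, Srp68, Ssr2, Tmed11, Tmed2 and Tmed7 were not matched. TGACGTGG on either strand occurred in 5 of the 47 (Copb1, Copb2, Sec16b, Sec23a and Sec24d), or 10.6%, beside 0.989% of 14452 array genes with a promoter. It occurred in 0 of the 11, too few genes to set them apart from the 47. The log2 changes of those 5 genes were 0.25, 0.33, -0.26, 0.01 and 0.34 in the same order. The arrays of Copb1 and Sec24d lay apart, with progesterone above oil. The ER stress elements ERSE and ERSE-II, each of which ends in CCACG, occurred in 0 of the 47, beside 0.138% and 0.0623% of array genes. The cyclic AMP response element TGACGTCA occurred in 1, Cope, and the steroid receptor palindrome in 0, beside 2.92% and 0.422%. Of the short letters inside these elements, CCACG was found in 33 of the 47 (70.2%, beside 45.9% of array genes) and in 6 of the 11, and CCAAT in 19 of the 47 (40.4%, beside 6070 of the 14452 array genes). A match is a description of letters in a short window and not of binding, and no match says nothing of elements elsewhere.

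Among the p24 cargo receptors, membrane proteins that cycle between ER and Golgi, 2 of 10 were higher. Tmed5 was at 9.42, 9.79 and 9.68 with progesterone and 8.68, 8.95 and 9.12 with oil, a difference of 0.71 ± 0.15 SE in log2, or 1.64-fold (limma adjusted p = 0.0252). Tmed9 was at 10.79, 10.74 and 10.63 with progesterone and 10.31, 10.27 and 10.33 with oil, 1.33-fold higher (limma adjusted p = 0.0256). The groups of both genes lay apart. Tmed7, at 10.68, 10.83 and 10.52 with progesterone and 10.28, 10.25 and 10.32 with oil, missed the threshold narrowly (log2 change 0.39, limma adjusted p = 0.0539). Tmed10 and Tmed8 had changes of 0.25 and 0.24 with arrays apart, and Tmed3, Tmed4 and Tmed6 had changes between -0.05 and 0.04 with overlapping arrays. Tmed2 and Tmed11 were at or below the TrpnX level on every array, between 2.89 and 3.30, which says nothing of Tmed2 itself, since 6 further probe sets assigned jointly to Tmed2 and Gm10698 were left out by the rule of 1 symbol. The brightest of those 6 was at 12.73, 12.62 and 12.55 with progesterone and 12.44, 12.35 and 12.42 with oil, far above the controls. None of the 6 passed when all probe sets were tested (log2 changes 0.23 to 0.45, lowest limma adjusted p = 0.11). The call of Tmed5 ended without progesterone replicate 2, progesterone replicate 3, oil replicate 1 or oil replicate 2 (adjusted p up to 0.0889). That of Tmed9 held only without progesterone replicate 3 (up to 0.101 otherwise). With the mean of its probe sets Tmed5 did not pass.

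None of the 8 COPI genes passed in limma. With 5.92% of all genes higher, a count of 0 in so few genes does not set them apart. Of the 8 genes 1, Copb1, had an unadjusted limma p under 0.05. The largest change was that of Copb2, the beta-prime subunit of the coat, at 10.23, 9.90 and 9.92 with progesterone and 9.63, 9.52 and 9.92 with oil (log2 change 0.33, limma adjusted p = 0.206). Oil replicate 3 equalled a progesterone array. Copb1, the beta subunit, was at 9.50, 9.57 and 9.50 with progesterone and 9.24, 9.28 and 9.30 with oil, a narrow but complete separation (log2 change 0.25, limma adjusted p = 0.0997). With an offset of 32 before log2, which damps dim genes, Copb1 passed (adjusted p = 0.0188). Copg2, a gamma subunit, was the gene with all progesterone arrays below all oil arrays, at 7.61, 7.65 and 7.69 with progesterone and 7.75, 7.83 and 7.90 with oil (limma adjusted p = 0.26). Copa, Cope, Copg1, Copz1 and Copz2 had changes between -0.08 and 0.17. The median log2 change of the COPI genes was 0.12, beside 0.24 for the COPII genes, and the difference between the coats was not tested.

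Of the Sec22 genes, which include a fusion protein of ER and Golgi vesicles, 1 of 3 was higher. Sec22b was at 9.24, 9.39 and 9.24 with progesterone and 8.97, 8.81 and 8.84 with oil, 1.33-fold higher (limma adjusted p = 0.0335). The groups lay apart, but the call ended in all 6 fits without 1 array (adjusted p up to 0.123) and with the mean of its probe sets. Sec22a and Sec22c had changes of 0.06 and 0.01 and overlapping arrays.

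A gene's other probe sets are a second look at the same RNA, although some of them lay close to the TrpnX level and measure little. The 56 genes had 115 probe sets, and 35 genes had more than 1. Of the 59 probe sets that were not used, some of which share a gene, 52 had a change above 0, beside 46.8% of all genes. When all 45037 probe sets other than controls were tested, 4.01% were higher (limma, adjusted over all probe sets). In that fit 5 of the 59 were higher and 0 lower. These 5 belong to Sar1a, Sec61a1, Ssr3, Tmed5 and Tmed9. Of the 15 higher genes 9 had another probe set, and for 3 of them another passed. In the same fit 13 of the probe sets that were used passed. Those of Sec23ip and Spcs3 no longer did (limma adjusted p = 0.0595 and 0.0514). All 6 probe sets of Sec61a1 had changes between 0.49 and 0.77. Probe sets disagreed for Sec62, whose changes ran from -0.51 to 0.37, for Copa (-0.08 and 0.39), for Sec22b (0.42 and 0.14) and for Tmed5, where a dim probe set had a change of -0.33 beside 0.71.

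**Figure D4:**
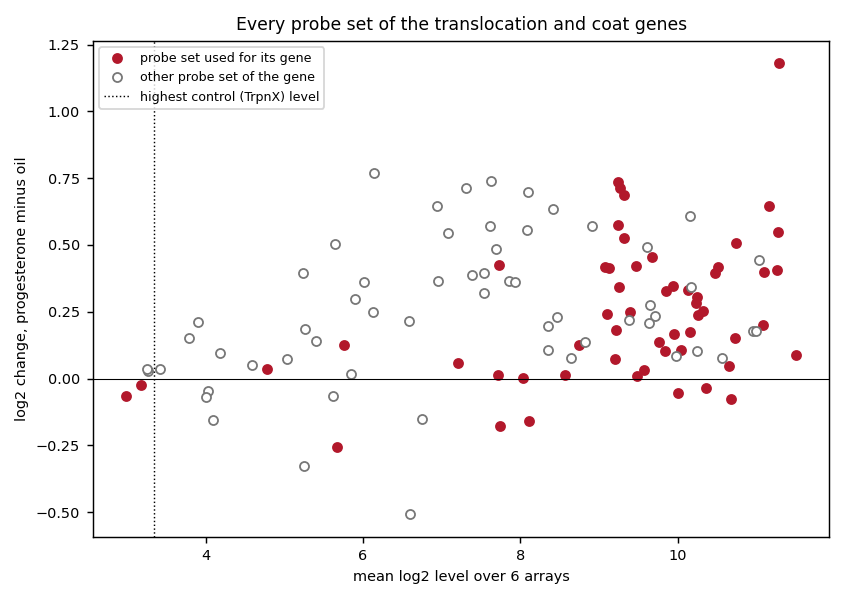
Mean log2 level over the 6 arrays against log2 change, progesterone minus oil, for all 115 probe sets of the 56 genes. Filled points are the probe sets used, open points the others, and the dotted line is the highest TrpnX control level of 3.34. Of the 59 open points 52 lie above 0.

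Other steps of the same route, and related traffic, are given by lists of known genes. For each list, the shares over all genes were 5.92% higher and 5.83% lower by the same rule. Of 12 oligosaccharyltransferase genes, which attach sugars at the channel, 3 were higher and 0 lower. Ostc was at 10.08, 10.36 and 10.35 with progesterone and 9.51, 9.51 and 9.73 with oil (1.60-fold higher, limma adjusted p = 0.0144). Rpn1 was 1.49-fold and Magt1 1.29-fold higher (limma adjusted p = 0.0172 and 0.03). Ostc and Rpn1 are subunits beside the channel, and Magt1 is an oxidoreductase subunit. Of 22 genes listed for tail-anchored and multipass membrane proteins, 1 was higher, Emc8 (1.38-fold). That share, 4.55%, lay near that of all genes. The 22 include Snd1, an RNA-binding protein rather than an insertion factor. On 11 of the 22, however, the progesterone arrays all lay above the oil arrays, beside 14.5% of all genes. The count of higher genes was 2 with the replicate block or the mean of probe sets, and 3 with median centring or without the lowest 25% of genes. It was 5 with trended and robust eBayes, 5 of 21 without the lowest 50%, and 8 with an offset of 32. The first list had 0 higher without oil replicate 1 or oil replicate 2, 1 without progesterone replicate 2 or progesterone replicate 3, and 2 without oil replicate 3. The second had 0 higher without progesterone replicate 2 or any oil replicate.

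Among 45 partners at ER exit sites and the Golgi, 9 were higher and 1, the fusion protein Stx5a, was lower. Stx18, a fusion protein of the ER, was at 10.72, 10.41 and 10.40 with progesterone and 9.63, 9.60 and 9.40 with oil (1.95-fold higher, 0.97 ± 0.12 SE in log2, limma adjusted p = 0.00592). Uso1, the tether p115 of arriving vesicles, was at 9.60, 9.57 and 9.49 with progesterone and 8.88, 8.84 and 8.82 with oil (1.63-fold higher, limma adjusted p = 0.00455). Both had groups far apart. Preb, the exchange factor that loads Sar1 with GTP, and Surf4, a cargo receptor, were 1.42-fold and 1.43-fold higher (limma adjusted p = 0.0194 and 0.0214). The count of higher genes was 8 without progesterone replicate 1, 3 without progesterone replicate 2, progesterone replicate 3 or oil replicate 3, and 2 without oil replicate 1 or oil replicate 2. The call of Stx5a held only without oil replicate 3.

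Coats, tethers and sorting factors that act outside the step from ER to Golgi are given next, including those of endocytosis and endosomes. Of 25 clathrin and adaptor genes 2 were higher (Ap2a2, 1.43-fold, and Ap3m1, 1.29-fold) and 1 was lower (Ap3m2, 1.41-fold), with a median log2 change of -0.01. These shares, 8% and 4%, lay near those of all genes, 5.92% and 5.83%. The counts of the exocyst and retromer lists are too small to set them apart from all genes. Of 9 exocyst genes 1 was higher, Exoc5 (1.53-fold, limma adjusted p = 0.0102), with a median of 0.02, and 2 were higher with median centring, an offset of 32, trended and robust eBayes or a filter on dim genes. Of 10 retromer and endosomal sorting genes 0 passed in limma, 1 had an unadjusted p under 0.05, and the largest change was -0.21, of Snx2. The clathrin and adaptor list had 0 higher without progesterone replicate 2 or any oil replicate, and 1 without progesterone replicate 1 or progesterone replicate 3. It had 0 lower without progesterone replicate 2, progesterone replicate 3 or any oil replicate, and with the mean of probe sets.

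Folding enzymes and regulators give the setting. Of 16 ER chaperones 7 were higher and 0 lower, with a median log2 change of 0.44, and this count stayed between 7 and 9 in the 6 fits without 1 array and was 9 with the replicate block. Hspa5, the main Hsp70 of the ER, was at 12.53, 12.37 and 12.33 with progesterone and 11.42, 11.17 and 11.42 with oil, 2.10-fold higher (limma adjusted p = 0.00316). Of 16 ER stress sensors and transcription factors of secretory cells, 5 were higher and 1 was lower. Creb3l1, a factor released from the ER membrane by cleavage, was at 7.11, 7.30 and 7.43 with progesterone and 6.00, 5.67 and 6.17 with oil (2.52-fold higher, 1.33 ± 0.15 SE in log2, limma adjusted p = 0.00408). Its relative Creb3l2 was 1.35-fold lower (limma adjusted p = 0.043). Atf4, a factor of the integrated stress response, was 1.80-fold higher and Bhlha15, a factor of secretory cells, 1.71-fold higher. Atf6b and the sensor kinase Ern1 were 1.49-fold and 1.39-fold higher. Without oil replicate 1, oil replicate 2 or progesterone replicate 2 the list had 2 higher genes, and 4 without any other single array, with 0 lower each time.

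**Figure D5:**
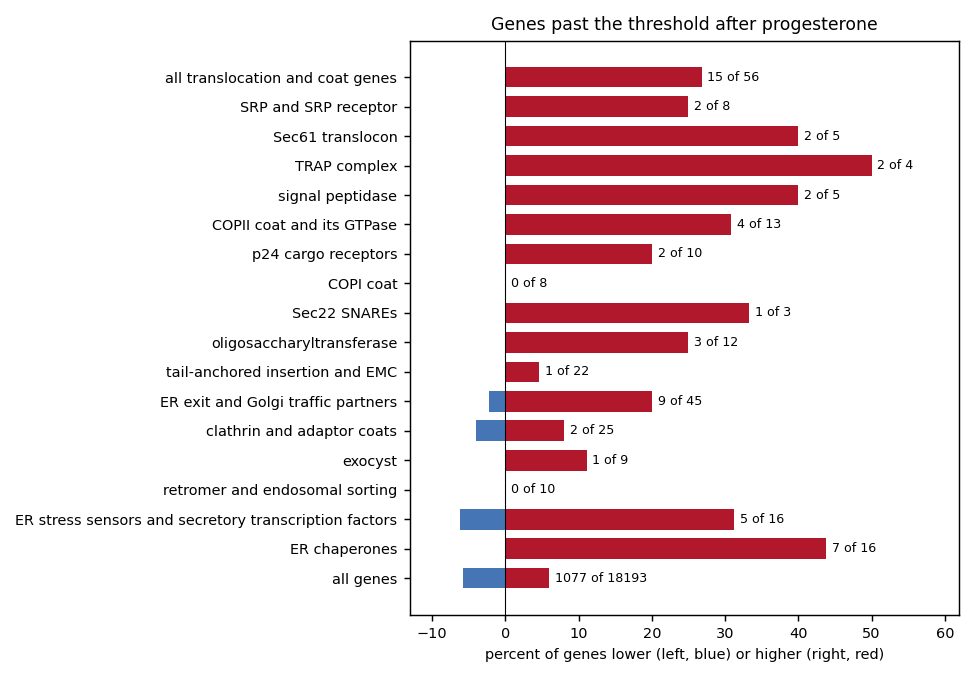
Percent of measured genes that were higher (red, right) or lower (blue, left) after progesterone for all 56 genes, for each role among them, for related lists and for all genes, with the number higher of the number measured. The COPI coat and the retromer list have 0 higher, and 7 of 16 ER chaperones are higher, beside 5.92% of all genes.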

How the data were processed

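For 45101 probe sets on 6 arrays the authors deposited log2 values, and per the submitters' processing notes the authors used Partek 6.6 and RMA; further settings are not given in the sources used here. Names came from the platform annotation: 34945 probe sets had 1 gene symbol, 932 several, 9160 none and 64 were controls. Groups came from the sample titles. A linear model without filter or block was fitted to the 18193 genes (limma 3.58.1 under R 4.3.3, moderated by eBayes), with two-sided p-values adjusted by Benjamini-Hochberg over all genes and a threshold of 0.05. The genes and lists were chosen with earlier results of these data known, and CCAAT and CCACG were added after motif counts were seen. Array values are given for every gene of the set that passed, those with an adjusted p up to 0.06, and the largest change of a role in which none passed, and up to 4 passing genes of each list are named. Xbp1 and other genes named beyond this were chosen after their values were seen.

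Same-numbered arrays deviated together (correlations 0.523, 0.141 and 0.636 across genes, all above 0.1), so a set rule counted the numbers in the titles as pairs. These pairs entered only the replicate block, and the main fit took no account of them. The labels do not say what a number shares, oil replicate 2 correlated more with progesterone replicate 1 (0.322), and counts with the block are given where they differ. On simulated data of 18193 genes for progesterone against oil, the fit recovered 5 of 50 genes given a log2 change of 0.5, and 44, 47 and 48 of 50 at changes of 1, 2 and 3. Of its 153 calls, 9 were false. Only 50 genes were changed at each size, whereas 2137 genes passed in the data. The adjusted threshold was therefore stricter in the simulation, and its recovery may understate that of the data. Alternatives were quantile normalization, median centring, an offset of 32, leaving out the lowest 25% or 50% of genes, other choices of probe set, trended and robust eBayes, the replicate block, a stricter adjusted p (0.01), a fold of at least 1.5, and omission of each array in turn. Leaving out replicate 3 of both groups was chosen after seeing the data. Protein sequences were not used here.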

Additional observations from a re-analysis of the deposited data

How the results depend on the processing

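No gene of the set was lower in any of the 18 alternatives. Brackets give the share of all genes that were higher in the same fit. The count of higher genes, 15 of 56 (5.92%), was 14 after quantile normalization (5.93%), 17 with median centring (6.28%) and 19 with an offset of 32 (6.87%). Without the lowest 25% and 50% of genes it was 17 of 54 (8.56%) and 18 of 51 (13.2%). It was 15 with the mean of probe sets (5.96%) and 13 without probe sets that can match several transcripts (5.5%). With trended and robust eBayes it was 18 (6.75%), and with the replicate block, which added Ssr3 and ended no call, 16 (7.6%). It ranged from 2 to 11 when 1 array was left out (2.08% to 4.66%). It was 4 without replicate 3 of both groups (3.22%), 2 at an adjusted p of 0.01 (1.8%) and 5 at 1.5-fold (3.7%). The median log2 change, 0.22, was 0.19 after quantile normalization, 0.24 and 0.25 without the lowest 25% and 50% of genes, 0.20 without replicate 3 of both groups, and 0.19 to 0.23 when 1 array was left out. With 3 arrays per group, genes not called are not shown to be unchanged. Changes of 0.5 were rarely recovered in simulation, but fewer genes were changed there than passed in the data. That recovery therefore does not carry over to these genes.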

Other observations

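Xbp1, which encodes a transcription factor that controls many genes of the secretory route and is activated by splicing of its messenger RNA, was at 11.98, 12.09 and 11.95 with progesterone and 12.00, 11.95 and 12.09 with oil (log2 change -0.01, limma adjusted p = 0.978). Arcn1, the delta subunit of the COPI coat, whose symbol is outside the naming rule used for that coat, was at 10.09, 10.01 and 9.87 with progesterone and 9.74, 9.55 and 9.72 with oil, with groups that lay apart (log2 change 0.32, limma adjusted p = 0.0944).

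Another 16 probe sets carry several gene symbols, at least 1 of which would belong to the set. They were left out because they cannot be assigned to 1 gene. Many of the 16 measure the same genes, Tmed2, Tmed10 or the Srp54 copies, so they are not 16 separate genes. Of the 16, 15 had a change above 0, beside 46.8% of all genes, with a median of 0.26. On 9 the progesterone arrays all lay above the oil arrays, beside 14.5% of all genes. None passed when all probe sets were tested with limma, and their mean levels with oil ran from 4.09 to 12.40.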
